A study of Homo sapiens with 15 samples.

Results

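ANKRD1, AXL and ACTA2 were the 3 genes on a quantitative RT-PCR panel of 296 genes that were chosen, by name, as targets of YAP and transforming growth factor beta (TGF-beta) signalling. They were read by 4 of the panel's 297 assays, because 2 assays, ACTA2 and ACTA2_dup, read ACTA2, and the second of them served as a technical check. RNA came from A549, an epithelial line from a human lung adenocarcinoma that keeps traits of alveolar type II cells, grown as a confluent layer on a porous membrane at the air-liquid interface. The cells were exposed to dimethylamine vapour for 1 h and left for 23 h, 3 times in 72 h. The 15 samples formed 5 groups of 3, namely dimethylamine at 14.9 ppm (low dose, LD), at 41.1 ppm (mid dose, MD) and at 81.7 ppm (high dose, HD), clean air (CA, the same flow of 3 ml/min per cm2 without dimethylamine) and the non-exposed control (NEC, no flow). All groups shared the cell line, the culture without serum and the medium, which was not changed between exposures, and each sample pooled 2 wells. A single tumour line stood for the epithelium, and the labels name no second cell type. By the paper's account, most panel genes were picked because an array or targeted sequencing had called them changed at HD, on the same RNA. Ranks and shares over the panel are therefore not set against an unselected transcriptome.

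YAP and its partner TAZ are co-activators that enter the nucleus when cells spread, stretch or lose contact with their neighbours, and they switch on genes through TEAD transcription factors. TGF-beta acts through receptors that phosphorylate SMAD proteins, and both routes meet at many genes of adhesion, matrix and the actin cytoskeleton. In lung epithelium they are known for their part in repair, fibrosis and the change from an epithelial to a mesenchymal state. ANKRD1 encodes a nuclear and sarcomeric ankyrin repeat protein and is a standard readout of YAP and TAZ. AXL, a receptor tyrosine kinase for the ligand GAS6, is a YAP target at the cell surface. ACTA2 encodes smooth muscle actin, the stress fibre protein of myofibroblasts, and is a classical target of TGF-beta and of serum response factor.

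The stretches of 250 bases before the annotated transcription starts are shown because the 3 genes rose together at HD, and so that the letters that factors of both pathways can bind may be seen where they occur. Sequences are from RefSeq (GRCh38.p14), 5′ to 3′ on the strand of the gene, and all 3 genes matched the reference by symbol. Capitals mark matches on either strand to GGAATG (TEAD), GTCTG (SMAD) or TGANTCA (AP-1).
ANKRD1, chr10:90921088-90921337, minus strand: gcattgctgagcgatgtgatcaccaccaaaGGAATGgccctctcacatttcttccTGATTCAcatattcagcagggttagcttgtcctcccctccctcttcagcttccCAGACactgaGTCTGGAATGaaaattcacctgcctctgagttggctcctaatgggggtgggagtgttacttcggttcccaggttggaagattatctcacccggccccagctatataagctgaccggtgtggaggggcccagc
AXL, first start, chr19:41218973-41219222, plus strand: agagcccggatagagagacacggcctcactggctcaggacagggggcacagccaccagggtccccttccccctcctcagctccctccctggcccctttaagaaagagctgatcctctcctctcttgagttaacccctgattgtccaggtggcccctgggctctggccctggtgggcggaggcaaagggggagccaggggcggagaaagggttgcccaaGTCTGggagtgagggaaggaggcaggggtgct
AXL, second start, chr19:41226505-41226754, plus strand: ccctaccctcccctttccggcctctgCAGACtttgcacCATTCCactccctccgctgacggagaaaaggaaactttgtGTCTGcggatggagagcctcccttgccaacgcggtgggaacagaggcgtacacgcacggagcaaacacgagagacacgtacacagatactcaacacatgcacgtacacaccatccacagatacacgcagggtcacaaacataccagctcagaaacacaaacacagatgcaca
ACTA2, inner start, chr10:88952774-88953023, minus strand: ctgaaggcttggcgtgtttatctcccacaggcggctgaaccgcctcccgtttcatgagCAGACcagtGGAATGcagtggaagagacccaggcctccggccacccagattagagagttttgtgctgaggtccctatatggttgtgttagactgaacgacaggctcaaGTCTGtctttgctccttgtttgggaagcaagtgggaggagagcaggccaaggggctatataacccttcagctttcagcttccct
ANKRD1 lies at chr10:90912096-90921087, AXL at chr19:41219223-41261766 and ACTA2 at chr10:88935074-88991337, so that the second AXL stretch and the inner ACTA2 stretch fall inside their genes. The ANKRD1 stretch held 2 TEAD matches, 2 SMAD matches and 1 AP-1 match. One TEAD match there, from base 128 to base 123 before the start, shares its first letter with a SMAD match from base 132 to base 128. The inner ACTA2 start had a TEAD match from base 183 to base 178 before it, and the second AXL start had one on the opposite strand from base 212 to base 207. The first AXL start and the outer ACTA2 start (chr10:88991338-88991587, minus strand) each had 1 SMAD match and no TEAD match. Among 35116 promoter stretches of this length, 11.9% held the TEAD letters, 38.0% the SMAD letters, 6.57% the AP-1 letters and 1.16% a CArG box, the element of serum response factor. No strict CArG box (CC, then only A or T, then GG) was found in the 5 stretches of the 3 genes. The inner ACTA2 stretch holds ccctatatgg and ccttgtttgg, each 1 letter off the strict form. A match describes letters only, and no binding was measured here.

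Levels are given as −ΔCT, the threshold cycle (CT) with its sign turned and the mean CT of the normalisation genes GPN1 and TMEM184C of the same sample added, so that a rise of 1 is about 1 doubling of RNA. All 60 wells of the 4 assays gave a product. Between 283 and 287 wells per sample did so over the panel, and an array gives no read depth. The mean CT of both normalisation genes lay between 24.6 and 25.1 in every sample except HD replicate 1, where it was 25.6. Exposure plate here means the number next to the letters B, R or NEC in a sample title. The paper's text does not explain this number, which may stand for a plate or for an exposure run. LD came wholly from exposure plate 1, MD from plate 5 and HD from plate 6, while CA and NEC had 1 sample on each of these plates, so dose and plate cannot be told apart among the exposed samples. Where the plate was fitted as a replicate block, its effect rested on 1 CA and 1 NEC sample per plate. The epithelial markers on the panel, CDH1 and KRT18, had mean CTs of 23.5 and 19.3 in CA, and the other 8 epithelial markers of the list, all 10 fibroblast and smooth muscle markers and all 6 endothelial markers were not on it. In such bulk samples, fewer cells of a type and less RNA per cell cannot be told apart. Log2 fold changes (log2FC) are differences of group means ± SE from limma with all 15 samples in the model, with Benjamini-Hochberg adjustment over the 282 genes tested (284 for HD vs MD), and an adjusted p under 0.05 was the threshold for a call.

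ANKRD1 had the largest log2FC of the 3 genes at HD. Its −ΔCT was -1.72, -1.68 and -0.88 in HD replicates 1 to 3. The MD values were -3.86, -4.08 and -3.57, and the LD values were -4.62, -3.99 and -4.74. In CA they were -5.10, -4.45 and -4.74, and in NEC -5.32, -4.05 and -3.91. The HD samples stood 1.85 or more above every MD sample and did not overlap with any other group, whereas the lower groups lay close together and NEC spread over 1.40. Relative to the CA mean, ANKRD1 RNA was between 8.23 and 14.8 times as abundant in the HD samples and between 1.61 and 2.28 times in the MD samples. The log2FC of HD vs CA was 3.34 ± 0.35 (adjusted p = 6.16e-06, 95% interval 2.58 to 4.10), the second highest of 282 genes. At MD it was 0.93 ± 0.35 (1.90-fold, adjusted p = 0.0363), and every MD sample lay above every CA sample, but MD overlapped with NEC (0.59 ± 0.35, adjusted p = 0.152, interval -0.17 to 1.35). The MD vs NEC value was 0.15 without NEC replicate 1 and 0.25 with the plate as a replicate block. The call at MD was lost without CA replicate 1 (0.76, adjusted p = 0.117), CA replicate 3 (0.94, 0.0680), MD replicate 1 (0.94, 0.0651) or MD replicate 3 (0.80, 0.114). It was also lost with the exposure plate as a replicate block, at 0.58 (adjusted p = 0.168), and with GPN1 as the only normaliser, at 0.91 (adjusted p = 0.0551). The paper removed the MD replicate 3 sample from its sequencing data as an outlier, and it was kept here.

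**Figure D1:**
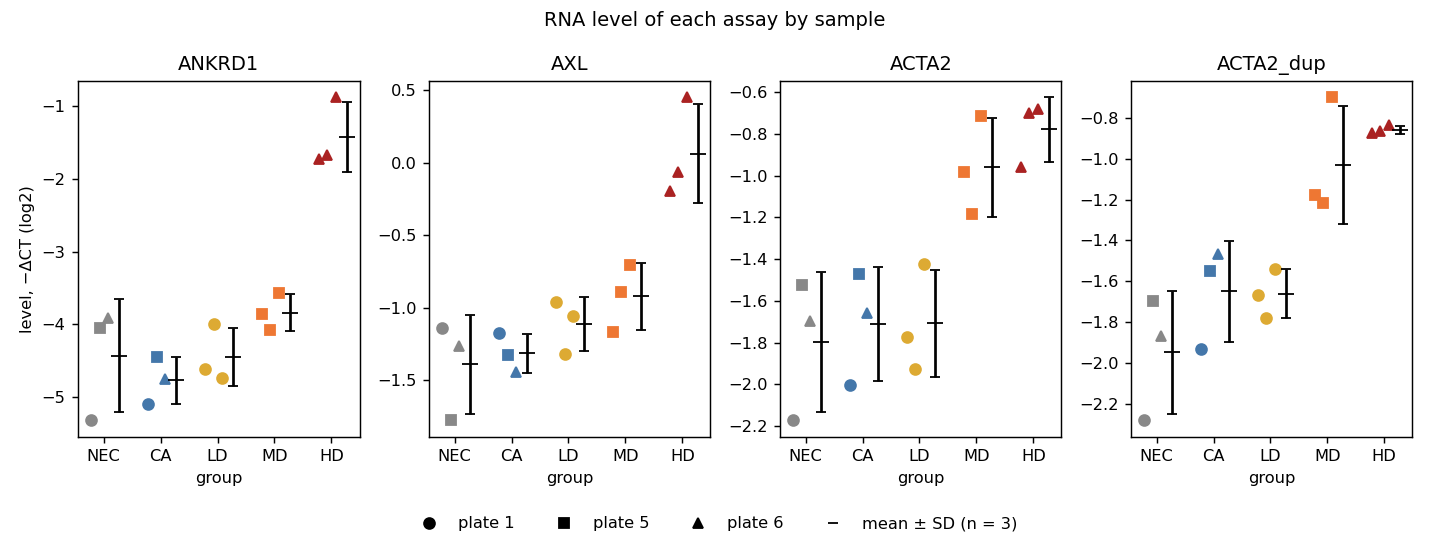
Level of ANKRD1, AXL, ACTA2 and ACTA2_dup as −ΔCT (log2 scale, y axis, a scale of its own for each assay) in the 5 groups (x axis). Each symbol is a sample, its shape gives the exposure plate, and the black mark is the mean ± SD of 3 samples. In HD only, ANKRD1 and AXL stand apart from all other groups. Both ACTA2 assays lie above LD, CA and NEC in MD and in HD.

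AXL was called as raised at HD, and at MD it was not called against CA in the main fit. Its −ΔCT was -0.20, -0.07 and 0.45 in HD, against -1.17, -0.89 and -0.71 in MD and -0.96, -1.32 and -1.06 in LD. The CA samples lay at -1.18, -1.33 and -1.44 and the NEC samples at -1.14, -1.78 and -1.26. All HD samples were above all others, by a gap of 0.51 to the highest MD sample, and the other 4 groups lay close together and largely overlapped. The HD samples held between 2.17 and 3.40 times the mean CA level. The log2FC of HD vs CA was 1.38 ± 0.20 (2.60-fold, adjusted p = 5.67e-05), place 27 among the rises of 282 genes. At MD the log2FC was 0.39 ± 0.20 (1.31-fold, adjusted p = 0.0998, interval -0.04 to 0.83). The MD samples lay above the CA samples, by a gap of only 0.01. Against CA and NEC together the MD value was 0.43 (adjusted p = 0.0338), which passed the threshold.

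ACTA2 was raised at MD already, and its HD and MD samples overlapped. Its −ΔCT was -0.96, -0.70 and -0.68 in HD and -0.98, -1.18 and -0.71 in MD. The LD values were -1.77, -1.93 and -1.43, the CA values -2.01, -1.47 and -1.66 and the NEC values -2.17, -1.52 and -1.70. Both dose groups lay above every sample of LD, CA and NEC, which overlapped among themselves. The log2FC was 0.93 ± 0.20 at HD (1.91-fold, adjusted p = 0.000850) and 0.75 ± 0.20 at MD (1.68-fold, adjusted p = 0.00681), places 65 and 39 among the rises. From LD to MD ACTA2 gained 0.75 ± 0.20 (adjusted p = 0.0127). That step lost its call without LD replicate 2 (0.64, adjusted p = 0.0567) or MD replicate 3 (0.63, adjusted p = 0.0629), and with the plate as a replicate block it was 0.16 (adjusted p = 0.727). Its call was also lost with GPN1 as the only normaliser (0.70, adjusted p = 0.0514) and without a normaliser (0.77, adjusted p = 0.0571).

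By the second assay, too, HD and MD lay above the other 3 groups. ACTA2_dup read -0.88, -0.87 and -0.84 in HD, -1.18, -1.22 and -0.70 in MD and -1.67, -1.78 and -1.54 in LD. It read -1.93, -1.55 and -1.47 in CA and -2.28, -1.70 and -1.87 in NEC. The 3 HD readings lay within 0.04 of each other, closer than those of any other group by this assay. The difference between the assays of a sample ran from 0.01 to 0.19 in size, with a mean of 0.04 and an SD of 0.13 over 15 samples, which is 0.09 for a single assay. ACTA2 was the higher reading in 9 samples and ACTA2_dup in 6. With ACTA2_dup in place of ACTA2, the log2FC was 0.79 at HD (adjusted p = 0.00119), 0.62 at MD (adjusted p = 0.00962) and 0.17 for HD vs MD (adjusted p = 0.507), so each fell on the same side of the threshold. For NEC vs CA the pair gave -0.09 and -0.30, the widest gap between them over the 10 comparisons, and neither passed. Both assays are listed for the same transcript, and where in it they lie is not given in the sources used here. An antisense gene, ACTA2-AS1, overlaps ACTA2 in the annotation, and whether the assays tell the strands apart is likewise not given.

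**Figure D2:**
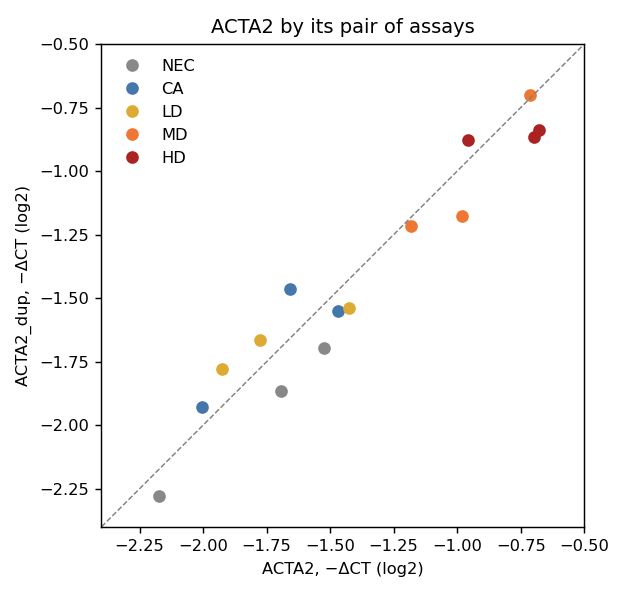
ACTA2 (x axis) against ACTA2_dup (y axis), both as −ΔCT on a log2 scale, with 1 point per sample coloured by group and the line of equal values dashed. The points keep within 0.19 of the line, and the HD and MD points lie above all LD, CA and NEC points on both axes.

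At HD vs CA all 3 genes were called as raised, on a panel where 44.3% of the genes tested were, and all 3 had every HD sample above every CA sample, as did 45% of the genes. The panel was mostly picked for changes at HD in the same RNA. These shares are thus not a neutral background, and a call at HD is not independent of that choice. At MD vs CA 2 of 3 were called as raised, with 36.2% over the panel, and all 3 had non-overlapping samples, with 43.3% over the panel. From MD to HD, ANKRD1 and AXL rose. HD vs MD was 2.41 ± 0.35 for ANKRD1 (5.31-fold, adjusted p = 0.000806, interval 1.65 to 3.17), the third highest rise of 284 genes. For AXL it was 0.98 ± 0.20 (1.98-fold, adjusted p = 0.00543, interval 0.55 to 1.42). For ACTA2 it was 0.18 ± 0.20 (adjusted p = 0.539, interval -0.25 to 0.61). In this comparison 12.3% of the genes were called as raised and 20.8% had every HD sample above every MD sample, which held for ANKRD1 and AXL and not for ACTA2. HD and MD came from different plates, and with the plate as a replicate block AXL was at 0.78 (adjusted p = 0.141) and ANKRD1 at 2.49 (adjusted p = 0.0123).

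From LD to MD, ACTA2 rose by the 0.75 given above. It was the only one of the 3 called in that comparison, on a background of 24.1%, while ANKRD1 was at 0.61 ± 0.35 (adjusted p = 0.184, interval -0.15 to 1.37) and AXL at 0.19 ± 0.20 (adjusted p = 0.477, interval -0.24 to 0.62). Between HD and LD all 3 were called (3.02 ± 0.35 for ANKRD1, 1.17 ± 0.20 for AXL and 0.93 ± 0.20 for ACTA2), with 39% of the genes. With the plate as a replicate block the ACTA2 value of HD vs LD was 0.52 (adjusted p = 0.107). Whether a step differed between genes was not tested. Ordered by mean −ΔCT, ANKRD1 ran CA, LD, NEC, MD, HD, and AXL and ACTA2 both ran NEC, CA, LD, MD, HD. For ANKRD1 and AXL the only neighbours in this order that differed beyond their spread were MD and HD, and for ACTA2 they were LD and MD.

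**Figure D3:**
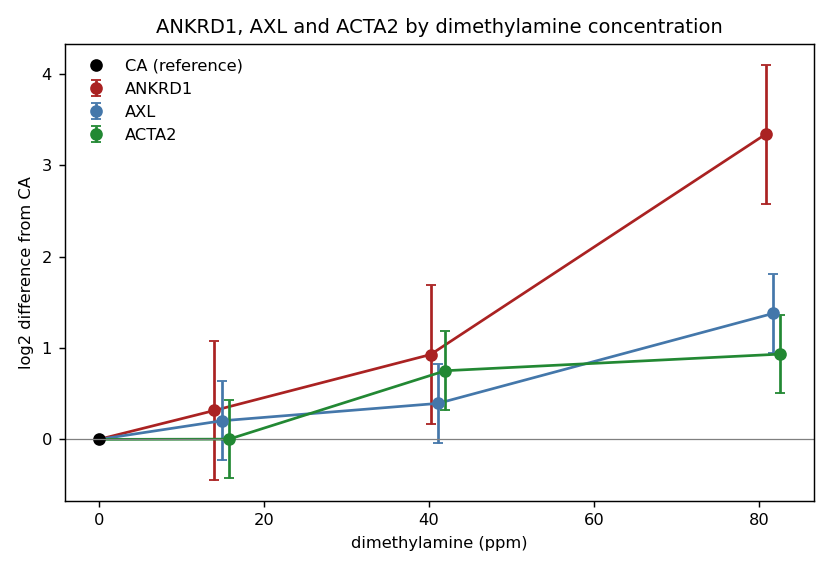
Log2 difference from CA (y axis) of ANKRD1, AXL and ACTA2 at the dimethylamine concentrations of LD, MD and HD (x axis, ppm), with bars for the 95% intervals and points of 1 dose set slightly apart. ANKRD1 and AXL gain 2.41 and 0.98 between MD and HD, and ACTA2 gains 0.75 between LD and MD.

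A straight line on concentration, fitted to the 12 samples of CA and the 3 doses, had a slope per 10 ppm of 0.41 ± 0.04 for ANKRD1 (adjusted p = 6.35e-06), 0.17 ± 0.02 for AXL (adjusted p = 3.98e-05) and 0.13 ± 0.02 for ACTA2 (adjusted p = 0.000374). All 3 slopes were called as rising, as were 42.6% over the panel. The ANKRD1 slope was the second steepest rise of 282 genes. A squared term was positive for ANKRD1 and AXL and negative for ACTA2, but none of the 3 passed the threshold (adjusted p = 0.0780, 0.343 and 0.522). Over the panel 0.355% of the genes had a called positive term.

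Neither the lowest concentration nor the flow itself moved any of the 3 genes past the threshold. LD vs CA was 0.32 ± 0.35 for ANKRD1 (interval -0.44 to 1.08), 0.20 ± 0.20 for AXL (interval -0.23 to 0.64) and 0.00 ± 0.20 for ACTA2 (interval -0.43 to 0.43), with adjusted p of 0.608, 0.565 and 0.992. With the plate as a replicate block these values were 0.93 for ANKRD1 (adjusted p = 0.129), 0.00608 for AXL and 0.34 for ACTA2, and ANKRD1 ran from 0.0872 without LD replicate 2 to 0.47 without CA replicate 2. At LD 4.26% of the genes were called as raised. NEC vs CA was 0.34 ± 0.35 for ANKRD1 (interval -0.42 to 1.10), -0.08 ± 0.20 for AXL (interval -0.51 to 0.36) and -0.09 ± 0.20 for ACTA2 (interval -0.52 to 0.34), and adjusted p values were 0.740, 0.931 and 0.918. Of all genes 0% were called as higher in NEC than in CA by limma, and 3 were called as lower. At an unadjusted p under 0.05 there were 46 genes in either direction. These intervals leave room for a change of ANKRD1 by more than 1 doubling, so a small effect of LD or of the flow was not detectable for it.

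Against NEC in place of CA, all 3 genes were called at HD as well. HD vs NEC was 3.00 ± 0.35 for ANKRD1, 1.45 ± 0.20 for AXL and 1.02 ± 0.20 for ACTA2, with 45.4% of the genes called as raised. MD vs NEC was called for ACTA2 alone (0.84 ± 0.20, adjusted p = 0.00235), on a background of 37.2%. AXL just missed there (0.47 ± 0.20, adjusted p = 0.0532) and passed without NEC replicate 1 (0.60, adjusted p = 0.0298) or MD replicate 1 (0.59, adjusted p = 0.0329). It also passed, at the same value, without HD replicate 1 (adjusted p = 0.0485) or HD replicate 3 (adjusted p = 0.0310). The same held in limma with a trended and robust variance model (adjusted p = 0.0398). With the plate as a replicate block it passed at 0.67 (adjusted p = 0.0268). LD vs NEC called 0 of the 3 by limma, with unadjusted p values of 0.185 to 0.954 and 14.5% of the genes called as raised. With 3 samples against 3, an exact two-sided permutation test of a single gene cannot go below 0.10, which ANKRD1, AXL and ACTA2 all reached at HD vs CA.

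Before normalisation the ANKRD1 signal stood out by itself. Its CT was 27.3, 26.8 and 25.8 in HD, and the earliest sample outside HD crossed at 28.57. AXL had CTs of 25.8, 25.2 and 24.5 in HD, where HD replicate 1 fell within the range of MD (25.7 to 25.9) and level with NEC replicate 1 (25.8). ACTA2 had CTs of 26.5, 25.8 and 25.6 in HD, and HD replicate 1 lay among the CA samples (26.5 to 26.8). HD replicate 1 was also the sample whose normalisation genes crossed latest. Without any normaliser the HD vs CA values were 3.03 for ANKRD1, 1.07 for AXL and 0.62 for ACTA2, each still called (adjusted p = 1.19e-05, 0.00668 and 0.0303), while the median of all genes moved from 0.14 to -0.17. HD vs MD was then 0.66 for AXL (adjusted p = 0.104) and -0.14 for ACTA2 (adjusted p = 0.648). Without HD replicate 1 the normalised HD vs CA values were 3.49 for ANKRD1, 1.51 for AXL and 1.02 for ACTA2.

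**Figure D4:**
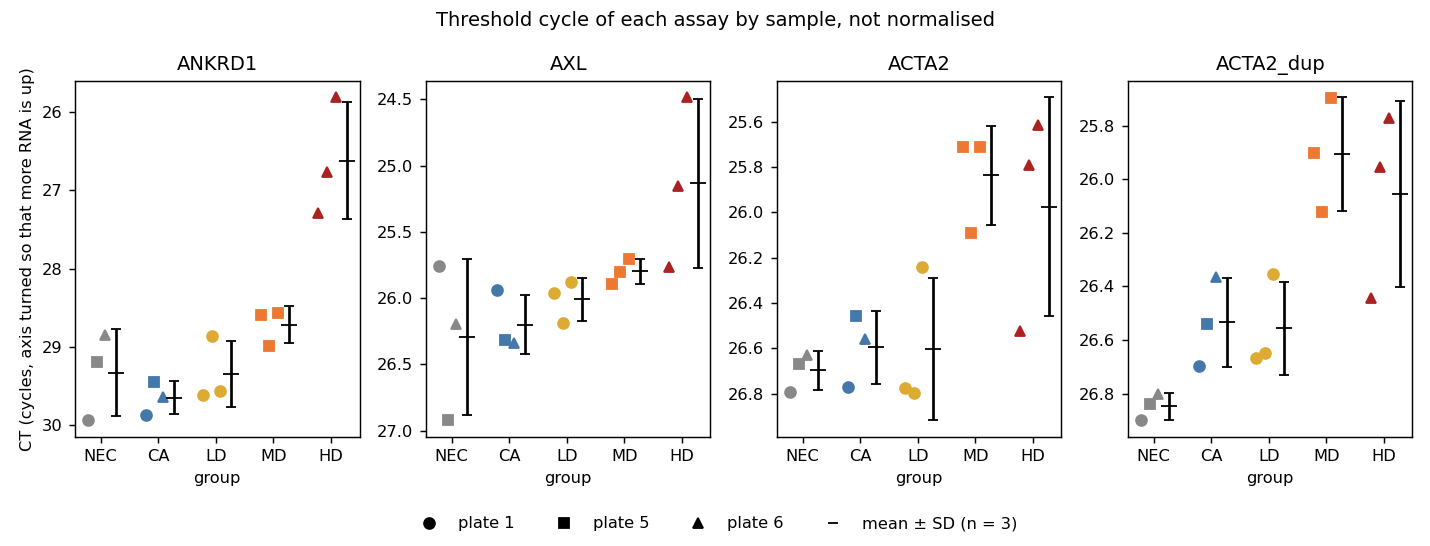
Threshold cycle of the 4 assays by sample before normalisation (y axis in cycles, turned so that more RNA is up, a scale of its own for each assay), with groups on the x axis, symbols by exposure plate and the mean ± SD of 3 samples in black. ANKRD1 keeps its gap in HD, and HD replicate 1 of AXL and ACTA2 falls among samples of other groups.

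The CA and NEC samples show how the genes differed between plates. For ANKRD1 and for both ACTA2 assays the plate 1 sample was the lowest of its group in CA and in NEC, and for AXL it was the highest in both. Since all LD samples were from plate 1, the LD values were set against the controls of that plate as well. Against the CA sample of the same plate, ANKRD1 was higher by 0.65 on average in LD (0.36 to 1.11), by 0.62 in MD (0.38 to 0.88) and by 3.32 in HD (3.02 to 3.86). By this measure the LD and MD values of ANKRD1 lay in the same range, and the HD values stood apart. Against the NEC sample of the same plate, ANKRD1 was at 0.87 in LD (0.58 to 1.33) and at 0.21 in MD (-0.03 to 0.48), so LD lay above MD. In HD it was then at 2.49 (2.19 to 3.04). AXL differed from CA by 0.06 in LD (-0.14 to 0.22), by 0.41 in MD (0.16 to 0.62) and by 1.50 in HD (1.24 to 1.89). From NEC it differed by 0.03 in LD (-0.18 to 0.18), by 0.86 in MD (0.61 to 1.07) and by 1.32 in HD (1.06 to 1.71). ACTA2 differed from CA by 0.30 in LD (0.08 to 0.58), by 0.51 in MD (0.29 to 0.76) and by 0.88 in HD (0.70 to 0.98), with LD overlapping MD. From NEC it differed by 0.47 in LD, by 0.56 in MD and by 0.92 in HD. A NEC sample differed from the CA sample of its plate by -0.22 to 0.83 for ANKRD1, by -0.45 to 0.18 for AXL and by -0.17 to -0.04 for ACTA2. Each of these differences rests on 1 control sample a plate and was not tested.

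**Figure D5:**
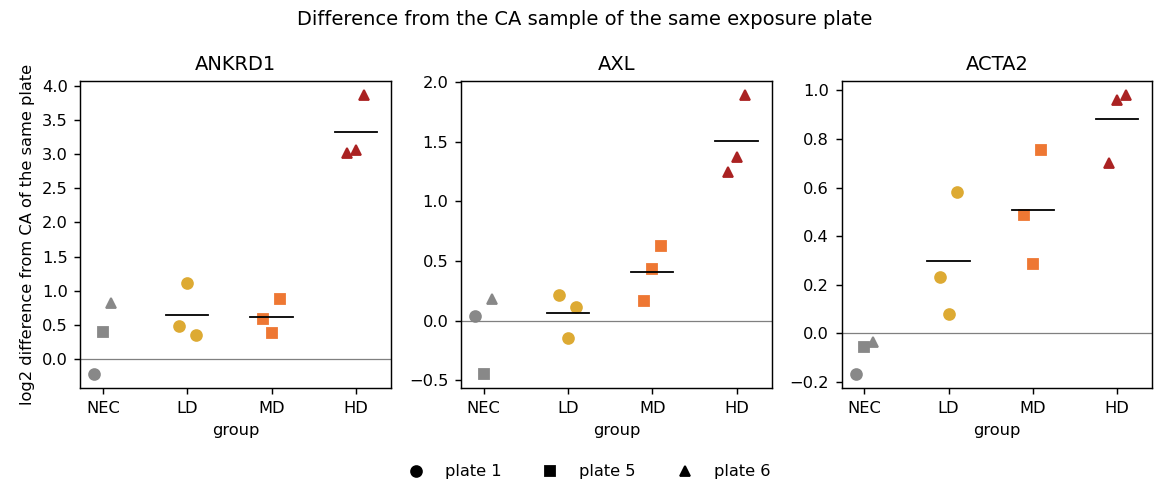
Log2 difference of each LD, MD, HD and NEC sample from the CA sample of its own exposure plate (y axis) by group (x axis) for ANKRD1, AXL and ACTA2, with symbols by plate and a line at the mean of each dose group. HD lies above MD for ANKRD1 and AXL, and for ACTA2 the 3 doses form an overlapping series.

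Few other genes of the same pathways were on the panel, and not all of them rose. Of 29 further symbols of YAP and TAZ targets, which give some genes under 2 names, 2 were measured. Both were called as raised at HD and at MD, where 44.3% and 36.2% of all genes were. Their median log2FC at HD was 1.33 against 0.14 over all genes. The lists were chosen with earlier results of these data known, so such counts describe the genes and test no pathway. AREG, an EGF receptor ligand, rose by 1.50 ± 0.22 at HD and 0.75 ± 0.22 at MD, and GADD45A, a growth arrest and DNA damage gene, by 1.17 ± 0.17 and 0.73 ± 0.17. AREG at MD was 0.51 with the plate as a replicate block (adjusted p = 0.0656). Of 37 further TGF-beta and SMAD targets 2 were counted, of which 1 rose and 1 fell at HD (median 0.04) and at MD (median 0.19 against 0.17 over all genes). LOXL2, a matrix crosslinking enzyme, rose by 1.93 ± 0.20 at HD and by 1.72 ± 0.20 at MD. FN1, which encodes the matrix protein fibronectin and is usually counted among the genes that TGF-beta raises, fell by 1.85 ± 0.19 at HD (adjusted p = 5.61e-06), with −ΔCT between 2.23 and 2.44 against 3.96 to 4.52 in CA.

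Of 17 genes of the epithelial and mesenchymal state, 2 were measured and both fell at HD and at MD, where 31.9% and 25.9% of all genes were called as lowered. Both are epithelial junction genes, and no mesenchymal gene of the list was on the panel. CDH1, the adherens junction protein E-cadherin, fell by 0.87 ± 0.11 at HD and by 0.60 ± 0.11 at MD, and CLDN2, a tight junction claudin, fell by 1.03 ± 0.10 and by 0.73 ± 0.10. KRT18, a keratin of simple epithelium, was at -0.02 ± 0.11 at HD (adjusted p = 0.849) and at 0.24 ± 0.11 at MD (adjusted p = 0.0766). The MD value of KRT18 passed the threshold with TMEM184C alone (0.26, adjusted p = 0.0180), with CA and NEC together (0.37, adjusted p = 0.00928) and without CA replicate 3 (0.30, adjusted p = 0.0499). Of 24 actin cytoskeleton and SRF targets only EGR2, an immediate early factor, was measured. It was near the detection limit, at −ΔCT of -7.71, -5.62 and -5.55 in CA and -4.10, -4.85 and -3.85 in HD, and its log2FC was 2.03 ± 0.55 at HD (adjusted p = 0.00515) and -0.03 ± 0.55 at MD (adjusted p = 0.962). Without CA replicate 1 the HD value of EGR2 was 1.32, and it stayed past the threshold. Of 27 pathway components only TEAD1, a DNA-binding partner of YAP, was measured, and it was at -0.03 ± 0.10 at HD (adjusted p = 0.794) and 0.02 ± 0.10 at MD (adjusted p = 0.845). Of 8 leukocyte markers the panel held only the B cell receptor component CD79A, which had a mean CT of 24.5 in CA and rose by 1.20 ± 0.15 at HD. Its part in the results for the 3 genes was not tested.

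The genes whose levels followed each member most closely over the 15 samples were taken by Pearson's r of −ΔCT among 271 other genes with a product in every sample. Points of 1 sample share its normaliser, samples of 1 dose share a plate, and the values describe the pattern without a test. For ANKRD1 they were BEX2 (r = 0.97), a brain-expressed X-linked family gene, PPP1R15A (0.97), a phosphatase subunit of the integrated stress response, DDIT3 (0.96), the stress transcription factor CHOP, and AKIRIN2 (0.95), a nuclear import factor of the proteasome. Each stood highest in HD, for example DDIT3 with mean −ΔCT of 2.46 ± 0.20 in HD, 0.78 ± 0.52 in MD and 0.30 ± 0.12 in CA (SD, n = 3). For AXL they were ZNF555 (0.92), a zinc finger gene, PLA2G4C (0.90), a phospholipase, PPL (0.90), which encodes periplakin, and BHLHE41 (0.90), a circadian repressor. ZNF555 was at -0.71 ± 0.29 in HD and at -2.19 ± 0.19 in MD. For ACTA2 they were EREG (0.97), an EGF receptor ligand, EBP (0.96), a sterol isomerase, SQSTM1 (0.95), an autophagy receptor, and PHLDA1 (0.95). These had their higher level from MD on, as EBP did at 4.17 ± 0.03 in HD, 4.10 ± 0.10 in MD and 3.47 ± 0.07 in LD.

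The most opposed genes were IQGAP2 (r = -0.89), a cytoskeletal scaffold, and NRCAM (-0.89), an adhesion molecule, for ANKRD1. They were EPHX2 (-0.87), the soluble epoxide hydrolase, and ARSB (-0.87), a lysosomal sulfatase, for AXL, and FN1 (-0.94) and the coagulation factor gene F5 (-0.93) for ACTA2. FN1 was at 2.83 ± 0.17 in MD and 4.02 ± 0.05 in LD, the groups between which ACTA2 rose. Among the 3 genes themselves r was 0.86 between ANKRD1 and AXL, 0.80 between ANKRD1 and ACTA2 and 0.71 between AXL and ACTA2. MD replicate 3 and HD replicate 3 were the highest of their groups for ANKRD1, AXL and ACTA2 alike. MD replicate 3 is the sample that the paper left out of its sequencing data as an outlier, and it was kept here.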

How the data were processed

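RNA of 15 A549 samples was reverse transcribed and run by the authors on customised RT2 profiler PCR arrays, which gave 1 CT per well. The first deposited matrix holds CTs in cycles, with nd where no product was found. The second deposited matrix holds log2-scale ΔCT values, for which the authors subtracted the mean CT of 2 normalisation genes chosen with NormFinder, and exactly 1 pair of assays, GPN1 and TMEM184C, links it to the first. In it the authors had capped 10 wells at a CT of 35 and filled 25 nd wells. The authors' fold change table was not used.

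Here the sign of ΔCT was turned, nd wells were treated as missing, and a gene was tested where both groups had at least 2 values. ACTA2_dup and the normalisation genes were left out of the tests. A linear model on the normalised CTs is named in the study's methods, and its moderated form in limma 3.58.1 in R 4.3.3 was used with 1 mean per group, two-sided, with Benjamini-Hochberg adjustment over the genes of a comparison and a threshold of 0.05. SEs and intervals come from the moderated fit. The fit was tested on simulated data. Other steps were run in Python 3.11.15 with numpy 2.4.6, pandas 2.3.3 and matplotlib 3.10.9. Replicates of a group correlated with r between 0.983 and 0.996 across genes, and no pair of samples held identical values. The sources call the samples of a group biological replicates, but the samples of 1 dose shared a plate number, so p-values measure the spread between these samples.

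The number in the sample titles that was read as the exposure plate pairs CA and NEC samples. Their deviations from the group means correlated with r of 0.718, 0.387 and 0.392 for replicates 1, 2 and 3. The highest r with a sample of another plate was -0.520, 0.325 and 0.381. The same-plate r was thus clearly higher for replicate 1 only, and a pairing by plate was not established for replicates 2 and 3. The plate was fitted as a replicate block among the alternatives, not in the main fit. Each dose had a single plate, so the block was estimated from 1 CA and 1 NEC sample per plate. The replicate numbers of LD, MD and HD are numbers only. Alternatives were another normaliser or none, filled nd wells, the plate block, other variance models, only the groups compared, CA and NEC together, the other ACTA2 assay, dose as steps and each sample left out. Named were the members, the normalisation genes, up to 8 measured genes of each list by adjusted p at HD, and for each member the 4 genes with the highest and the 2 with the lowest r. Members and lists were chosen with earlier results of these data known. One further list gene is not reported here.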

Additional observations from a re-analysis of the deposited data

How the results depend on the processing

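The HD vs CA calls and the slopes of ANKRD1, AXL and ACTA2 kept their direction and their side of the threshold under all alternatives run, as did ACTA2 at MD vs CA and ANKRD1 at HD vs MD. Left out 1 sample at a time, values ran from 0.76 to 1.08 for ANKRD1 at MD vs CA, from 0.63 to 0.89 for ACTA2 at MD vs LD, from -0.14 to 0.12 for ACTA2 at LD vs CA, from -0.20 to 0.12 for AXL and from -0.23 to 0.10 for ACTA2 at NEC vs CA, from -0.47 to 0.24 for ANKRD1 and from -0.10 to 0.23 for ACTA2 at LD vs NEC, from -0.0982 to 0.0215 for TEAD1 and from -0.12 to 0.0442 for KRT18 at HD vs CA, and from -0.00712 to 0.0742 for TEAD1 and from -0.74 to 0.34 for EGR2 at MD vs CA. With the plate as a replicate block ANKRD1 was at 0.58 for MD vs CA, -0.34 for MD vs LD and 0.59 for LD vs NEC, ACTA2 at 0.16 for MD vs LD, AXL at 0.78 for HD vs MD and TEAD1 at -0.0799 for MD vs CA. A fit with the replicate numbers of the dose groups as a block changed no call, for example ACTA2 at MD vs LD (0.75, adjusted p = 0.00878). The fit without that block, added after the data were seen, changed none either. These numbers are labels that pair no samples, so the block fit cannot show what a paired design would. With GPN1 alone, ANKRD1 was at 0.91 for MD vs CA (adjusted p = 0.0551) and 0.00342 for LD vs NEC, and ACTA2 at 0.70 for MD vs LD (adjusted p = 0.0514). The calls of ANKRD1 at MD vs CA and of ACTA2 at MD vs LD were thus lost. With TMEM184C alone, HD vs CA was 0.0329 for TEAD1 and 0.0386 for KRT18, and ACTA2 at LD vs CA was -0.0258. With the mean of all assays, ANKRD1 was at 0.0334 for LD vs NEC and TEAD1 at -0.0338 for MD vs CA. Without a normaliser, ACTA2 was at 0.77 for MD vs LD (adjusted p = 0.0571, call lost), -0.00832 for LD vs CA and -0.14 for HD vs MD, and AXL at 0.66 for HD vs MD. The second ACTA2 assay gave -0.0115 and the mean of both -0.00428 for LD vs CA. In the ordinary linear model ANKRD1 at MD vs CA, 0.93, had an adjusted p of 0.0641. With CA and NEC together AXL at MD vs CA was 0.43 and KRT18 at HD vs CA 0.11. The causes were not tested.

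The number of genes called at MD vs CA was 175, and 114 without a normaliser. At LD vs CA it was 33, and 2 with GPN1 alone, 11 without a normaliser, 17 with the plate block, 5 in the ordinary linear model, 5 with only the groups compared, 81 with CA and NEC together and between 2 and 43 with 1 sample left out. At NEC vs CA it was 3, and 1 without a normaliser, 9 with the plate block, 9 with only the groups compared and between 1 and 9 with 1 sample left out. Over 2-fold were 106 of 215 genes at HD, 31 at MD and 3 at LD.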
